A study of Mus musculus with 4 samples.

Results

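The strongest HNF4A peaks of healthy mouse colonic epithelium that were also found in colitis are described here and are called sites. They were selected on the deposited peak score in the water library and on overlap with a peak of the DSS library. Water peaks with a score of at least 20.8, the top 10% of the list, were taken, and those that shared at least 1 bp with a DSS peak were counted as found again. This gave 1749 of the 17880 water peaks outside the mitochondrial chromosome. The material was epithelium scraped from the colon of adult mice aged 2 to 4 months. The mice drank water only, or were given 3% dextran sulfate sodium for 6 days. This agent, abbreviated DSS, damages the lining of the colon and brings on colitis. For each treatment there was 1 library made with an antibody to HNF4A and 1 with an antibody to H3K27ac, so the 4 groups held 1 library each. The sources used here give neither strain nor sex, and do not say whether animals were pooled. No comparison has a replicate check, no p-value can be given, and all 95% intervals cover counting error only.

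HNF4A belongs to the nuclear receptors and contacts DNA as a homodimer at direct repeats of a hormone response element. In the intestine it maintains genes of differentiated absorptive cells, of lipid transport and of cell junctions, and mice that lack it in the colonic epithelium are known to be more sensitive to DSS. Acetylation of lysine 27 of histone H3 (H3K27ac) is found on nucleosomes beside active enhancers and promoters. A transcription factor usually sits in the gap between such nucleosomes. Scraped epithelium can also hold immune and stromal cells, and fewer bound cells and less binding per cell cannot be told apart in such bulk material.

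After mitochondrial peaks were left out, 17880 HNF4A peaks remained for water and 10678 for DSS. Each peak was 600 bp wide. The kind of score is not stated in the files and the HNF4A depths are unknown, so scores were compared by rank within a list. The H3K27ac libraries held 10143920 tags in water and 10329416 in DSS, and the regions used here for that mark are the 1000 most enriched in each direction that lie at least 2 kb from a feature the deposited lists do not name.

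Of the 1787 water peaks in the top 10%, 1749 (97.9%, interval 97.1 to 98.4) overlapped a DSS peak. Over the whole water list the share was 52.9%, and among the weaker water peaks 7714 of 16093 (47.9%, interval 47.2 to 48.7) were found again. The rule fixed this overlap, so these shares describe the sites. Within the top 10% the share still moved with score: it was 99.3% (98.5 to 99.7) above the median rank of that class and 96.4% (94.99 to 97.5) below it. The 3 sites just inside the limit had water scores between 20.795 and 20.796 and DSS ranks of 1765, 1949 and 3014. The 3 shared peaks just outside it had scores of 20.78 to 20.79 and DSS ranks of 659, 3817 and 4751, so the limit separates sites of nearly equal score.

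Water scores of the sites ran from 20.8 to 172 with a median of 26.7, against 9.4 over the whole water list. The partner peaks, defined as the overlapping DSS peak with the nearest centre, had DSS scores from 5.37 to 207 with a median of 23.0, against 10.9 over the whole DSS list. Most partners lay above the DSS median, but only a minority lay in the top 10% of the DSS list. The median DSS rank was 1195 of 10678, with quartiles of 490 and 2443. A partner in the top 10% of the DSS list was found for 813 sites (46.5%, interval 44.2 to 48.8), against 322 of the 7714 weaker shared peaks (4.17%, interval 3.75 to 4.64). A partner above the DSS median was found for 1642 sites (93.9%, 92.7 to 94.9). The other 107 had a partner in the lower part of the DSS list, and 7 of these lay in its lowest 10%.

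The order of strength carried over in part. Spearman's rho between water and DSS scores was 0.58 over the 1749 sites, given as a description across sites that share 2 libraries and were chosen by 1 of the scores. The 350 sites of highest water score had a median DSS rank of 260.5, and 304 of them (86.9%) had a partner in the top 10% of DSS. The 350 sites of lowest water score had a median DSS rank of 2244.5, and 66 (18.9%) had such a partner. The lists differ in length and the sites were selected on water rank, so a water rank beside a DSS rank gives the place in each list and no change. Read from the other side, 804 of the 1068 DSS peaks in the top 10% (75.3%, interval 72.6 to 77.8) overlapped one of the sites. A further 233 overlapped weaker water peaks alone, and 31 overlapped no water peak. Over the whole DSS list, 1736 of 10678 peaks were the partner of a site. The rule used this overlap, so the 75.3% only describes the sites.

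**Figure D1:**
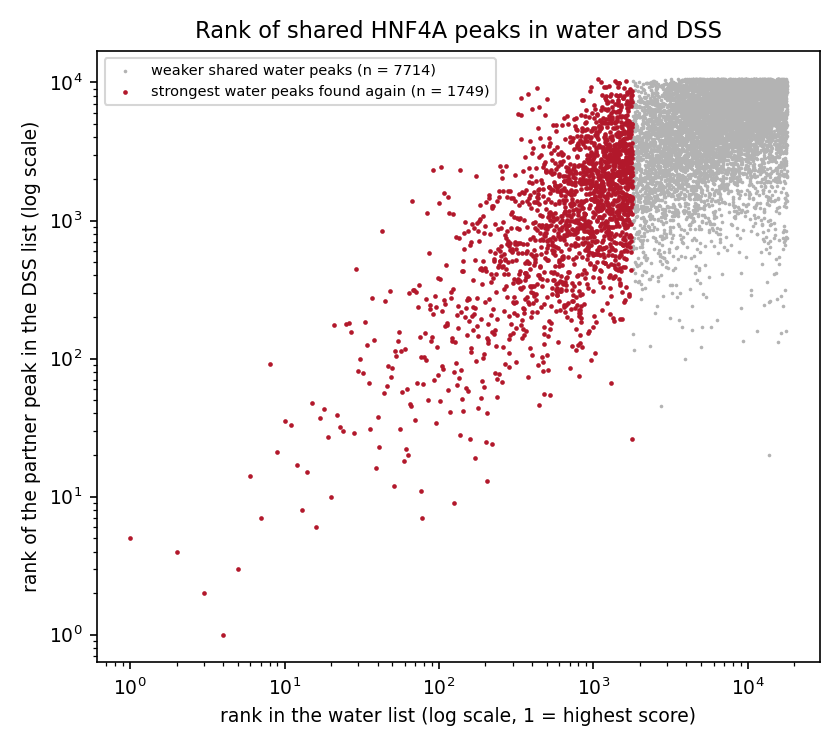
Rank of each shared peak in the water list (horizontal, log scale) and of its partner in the DSS list (vertical, log scale), with 1 as the highest score. The 1749 sites (red) fill the left part that their selection sets and reach from DSS rank 1 to 10570, with a median of 1195; grey points are the 7714 weaker shared peaks.

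The 5 sites of highest water score were also the first 5 of the DSS list, in another order. The strongest water peak was on the X chromosome (139917300 to 139917899, mm9), with a score of 172 in water and 142 in DSS, where it ranked 5. The site of rank 2, on chromosome 12 (3109745 to 3110344), scored 150.5 in water and 153.7 in DSS and ranked 4 there. On chromosome 4 (70038934 to 70039533) the scores were 147.6 and 170.2, ranks 3 and 2. None of the 5 overlapped a listed H3K27ac region. On chromosome 9 (35112727 to 35113326) the water score was 138.6 and the DSS score 207, the highest of that list. The fifth site lay on chromosome 6 (103598875 to 103599474), with scores of 106.2 and 153.7 and ranks 5 and 3. Scores fell away quickly after these sites, and the site of rank 50 among them scored 57.8 in water.

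Ranks 6 to 10 in water were less alike in DSS. The sites on chromosome 18 (40467597 to 40468196) and chromosome 15 (74917064 to 74917663) ranked 14 and 7 in DSS. Those on chromosome 12 (75905136 to 75905735) and chromosome 4 (28103814 to 28104413) ranked 21 and 35. The site on chromosome 19 (61275363 to 61275962) moved most among the 10, from rank 8 to rank 92, with a score of 96.1 in water and 56.5 in DSS. Of these 10 sites only the one on chromosome 15 overlapped a listed H3K27ac region, one enriched in DSS. Whether any of them lies in a place of known artefact signal was not tested.

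The largest rises in rank percentile went to sites near the score limit in water. The selection sets this: within the top 10% of the water list no site could rise by more than 10 points. Falls had no such limit. The site on chromosome 13 (3371885 to 3372484) stood at rank 1769 in water, with a score of 20.9, and at rank 26 in DSS, with a score of 84.0. Its nearest DSS centre lay 185 bp away and it overlapped 2 DSS peaks. The DSS peak of rank 26 was also the partner of a stronger site that overlapped this one and had a nearer centre. Another riser with distant centres, on chromosome 9 (3035793 to 3036392, ranks 1304 and 66, centres 0.242 kb apart), lay in a crowded block at the start of that chromosome. Its DSS peak, too, was the partner of a stronger overlapping site with a nearer centre. Both of these risers thus took the rank of a DSS peak shared with a stronger site, so neither rise describes the riser alone. The other 3 had centres within 45 bp of each other: chromosome 3 (52299170 to 52299769, ranks 1700 and 282), chromosome 4 (45981886 to 45982485, ranks 1701 and 295) and chromosome 15 (82237354 to 82237953, ranks 1525 and 193). In percentile these 5 rose by between 6.68 and 9.65 points.

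The largest falls in percentile ended near the bottom of the DSS list. A site on chromosome 17 (28486885 to 28487484) scored 24.8 in water, rank 1078, and 5.37 in DSS, rank 10570 of 10678, with centres 12 bp apart. On chromosome 5 (144692916 to 144693515) the ranks were 1380 and 10328, with centres 303 bp apart. The remaining falls were on chromosome 8 (126275449 to 126276048, ranks 1120 and 10000), chromosome 15 (98475544 to 98476143, ranks 1618 and 10212) and chromosome 7 (90814454 to 90815053, ranks 1416 and 9926). All 5 overlapped 1 DSS peak each and no listed H3K27ac region. In 4 of them the centres lay within 55 bp, so a weak DSS peak stood at the position of a strong water peak.

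Position within the overlap was not fixed by the rule, which asks for 1 bp, so the distance between the called peak centres was described. Whether it follows the binding position or the strength of the peaks was not tested. The median distance was 18 bp (exact interval of the median 17 to 20, quartiles 8 and 34) in peaks 600 bp wide. Centres lay within 50 bp in 1531 of the 1749 sites (87.5%, interval 85.9 to 89.0) and within 10 bp in 564. In the weaker shared peaks the median distance was 34 bp (quartiles 15 and 70) and 65.0% (63.9 to 66.1) lay within 50 bp, which is 22.5 percentage points fewer (interval of the difference 20.6 to 24.3). The distance was shorter in each higher 10% of the water list and reached a median of 97 bp in the lowest. It thus moved with the score used to select the sites. Shifts had no preferred direction, with 864 sites shifted to higher coordinates in DSS, 851 to lower ones and 34 with identical centres. Centres over 300 bp apart were found in 5 sites, 4 of which overlapped another water peak.

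**Figure D2:**
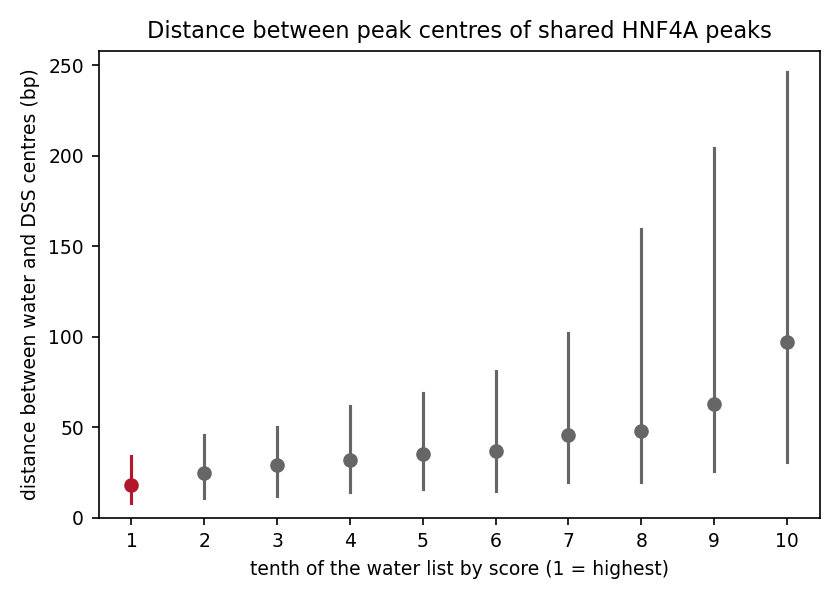
Distance in bp between the centres of shared water and DSS peaks (vertical) for each 10% of the water list by score (horizontal, 1 = highest; points are medians, bars run from the first to the third quartile). The highest class (red; the 1749 sites and 1 further peak at the limit) has a median of 18 bp and the lowest 97 bp.

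Most sites overlapped 1 DSS peak, and 116 (6.63%, interval 5.56 to 7.90) overlapped 2 or more, against 5.65% (5.16 to 6.19) of weaker shared peaks, a difference within the intervals. Fewer of the sites than of the weaker shared peaks overlapped another water peak: 247 (14.1%, 12.6 to 15.8) against 22.04% (21.1 to 23.0). Another water peak lay within 10 kb of 55.2% of the sites (52.9 to 57.5) and of 55.7% of the weaker shared peaks (54.6 to 56.8). The sites themselves were mostly spread out, with a median of 158 kb to the next site (quartiles 31.5 and 565 kb). Another site lay within 10 kb of 205 of them (11.7%, 10.3 to 13.3). After overlapping sites were merged, 1715 intervals were left, which formed 1620 groups at a linking distance of 10 kb, and 5 of these groups held 3 or more intervals.

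The largest of these groups held far more peaks than the others. It covered 38.7 kb at the start of chromosome 9 (2999821 to 3038498) and held 27 sites in 15 intervals, among 42 water and 29 DSS peaks. The next by intervals held 4 sites in 4 intervals on chromosome 2 (98502627 to 98507331). Groups of 3 intervals lay on chromosome 11 (3000232 to 3004293 and 69223057 to 69231605) and chromosome 10 (127040576 to 127059447). Other groups held 3 sites in fewer intervals, such as 1 on chromosome 15 (74915700 to 74917663) with 2 intervals. Mouse chromosomes carry the centromere at one end, and the numbered sequence of mm9 begins at about 3 Mb. Of the 164 water peaks ending at or before position 3500000, 55 (33.5%, interval 26.8 to 41.1) were among the sites, against 1694 of 17716 peaks elsewhere (9.56%), a difference of 24.0 percentage points (17.2 to 31.5). This window was chosen after the values had been seen, and 27 of its 55 sites came from chromosome 9. Peaks crowded at chromosome starts and in the chromosome 2 group are of a kind that artefact signal can give. Whether these peaks are HNF4A binding was not tested.

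Sites near the chromosome starts differed from the rest in other measures too. Of the 55, 29 (52.7%, 39.8 to 65.3) overlapped 2 or more DSS peaks, against 5.14% (4.18 to 6.29) of the sites elsewhere. Their centres were 5 bp apart at the median (quartiles 1 and 29), against 19 bp (quartiles 8 and 34) elsewhere. Their median ranks were 216 in water and 256 in DSS, and 8 of the 50 sites of highest water score lay there. Without them the share of top peaks found again was 97.9%, the same as with them, and the median distance between centres was 19 bp.

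By chromosome, the sites made up between 8.21% (chromosome 5) and 11.02% (chromosome 15) of the water peaks of an autosome. The X chromosome was lower, with 14 sites among 264 water peaks (5.30%, interval 3.18 to 8.70), against 1735 of 17616 on the autosomes (9.85%, interval 9.42 to 10.3), a difference of -4.55 percentage points (-6.71 to -1.12). Of these 14, 3 ranked among the first 100 of the water list, including the strongest peak of all. The X chromosome was singled out after the values of 20 chromosomes had been seen. Chromosome 9 stood at 10.98% with and 8.58% without the first 500 kb after 3 Mb.

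**Figure D3:**
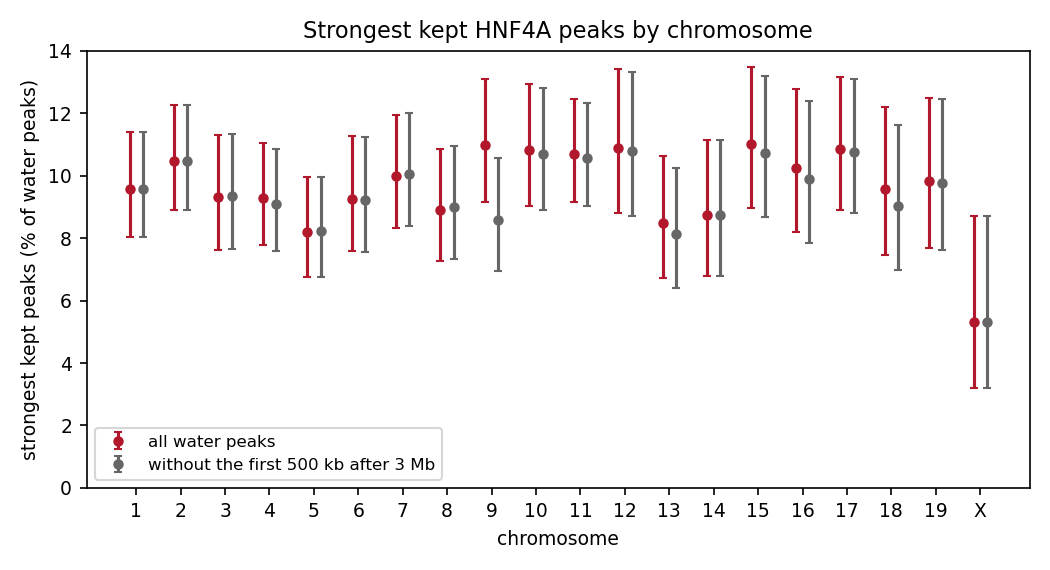
Share of water HNF4A peaks that are strongest sites found again (vertical, percent) by chromosome (horizontal), for all peaks (red) and without peaks in the first 500 kb after 3 Mb (grey); bars are Wilson 95% intervals. Autosomes lie between 8.21% and 11.02% in red, the X chromosome at 5.30%, and chromosome 9 drops to 8.58% in grey.

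H3K27ac was measured in separate libraries and was not used to choose the sites. Water-enriched regions, the 1000 listed as most enriched in water by the authors' score, were overlapped by 61 of the 1749 sites (3.49%, interval 2.72 to 4.45). That score also uses linker tags, so it does not rank the change in nucleosome tags alone. Over all water peaks the share was 2.51%. The sites exceeded the other water peaks by 1.09 percentage points (0.29 to 2.08), while their difference from the weaker shared peaks (3.07%, 2.71 to 3.48) was 0.42 points, with an interval that held 0 (-0.45 to 1.45). DSS-enriched regions, the 1000 listed as most enriched in DSS by the same score, were overlapped by 22 sites (1.26%, 0.83 to 1.90). This was close to the 1.17% of all water peaks, and the difference from the other water peaks was 0.092 points (-0.37 to 0.75). No site lay on regions of both lists, and 1666 sites (95.3%) lay on none. Regions of unchanged H3K27ac were not analysed here, so a site on no listed region may still be acetylated.

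**Figure D4:**
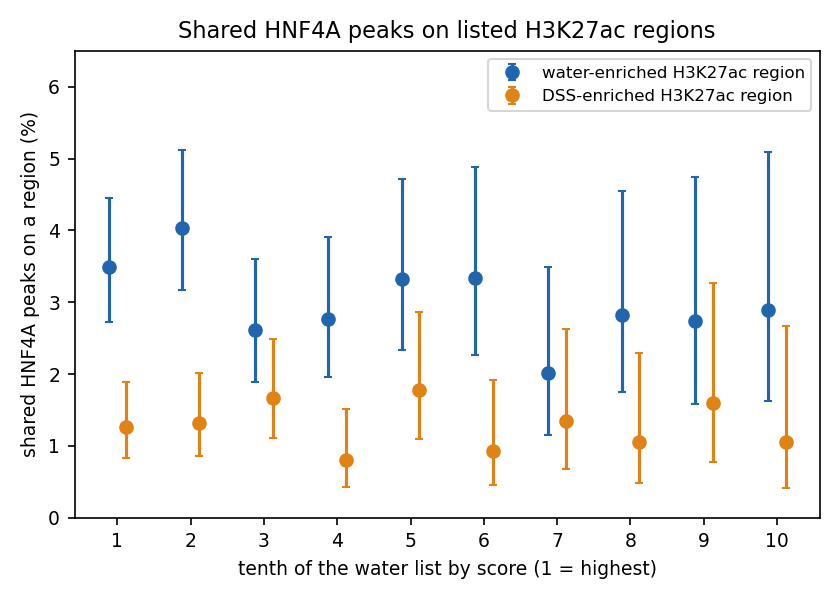
Share of shared HNF4A peaks that overlap a water-enriched (blue) or DSS-enriched (orange) H3K27ac region (vertical, percent) for each 10% of the water list by score (horizontal, 1 = highest); bars are Wilson 95% intervals. The highest class lies at 3.49% and 1.26%, and the intervals of all 10 classes of a colour overlap.

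The 61 sites on water-enriched regions and the 22 on DSS-enriched regions had like HNF4A ranks. Their median DSS ranks were 932 (quartiles 333 and 2239) and 1006.5 (219.5 and 1953), beside a median of 1211 for the sites on no listed region. A partner in the top 10% of DSS was found for 34 of 61 (55.7%, 43.3 to 67.5) and 12 of 22 (54.5%, 34.7 to 73.1), a difference of -1.19 points with an interval from -24.3 to 21.1. A difference was thus not detectable with this number of sites.

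On water-enriched regions the HNF4A centre sat near the middle of the region. Where a peak overlapped several regions, the region of nearest centre was used, which can only shorten the distance. The median distance from peak centre to region centre was 43 bp for the sites (quartiles 18 and 221) and 79 bp for the other water peaks (quartiles 33 and 280), in regions 555 bp wide at the median. Within 100 bp lay 43 of 61 sites (70.5%, 58.1 to 80.4) and 220 of 387 other water peaks (56.8%, 51.9 to 61.7), a difference of 13.6 points (0.35 to 24.8). On DSS-enriched regions the median was 220 bp, and its exact interval (32 to 375) overlapped that on water-enriched regions (28 to 72). There 9 of 22 sites lay within 100 bp (40.9%, 23.3 to 61.3), and the difference from other water peaks was -5.37 points (-24.4 to 16.2).

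The 61 sites fell on 71 water-enriched regions, some of which overlap each other. In water the nucleosome tags per region had a median of 424 (range 89 to 1441). In DSS the median was 261 (range 25 to 996). The median log2 ratio of DSS to water was -0.74 (quartiles -0.94 and -0.63), a 1.67-fold higher level in water. A loss of more than 2-fold was seen in 16 of the 71 regions (22.5%, 14.4 to 33.5), against 40.1% of the whole list, and in 261 of 541 regions without a water HNF4A peak (48.2%, 44.1 to 52.5). Regions with a site thus had a smaller drop than regions without a water peak (-18.9 points, interval -27.7 to -7.49), from a higher level. Against regions with another water peak the difference was -9.42 points, with an interval that held 0 (-18.9 to 2.42). Tag level moved with this: regions with a site made up 15.6% of those with 694 to 2440 tags over both libraries and 3.19% of those with 84 to 277. Within the higher of these tag classes the median log2 ratios were -0.68 with a site (39 regions), -0.72 with another water peak and -0.66 without one. In the lowest class they were -1.12 with a site (8 regions) and -1.35 without a water peak. The classes between went opposite ways, with -1.37 (5 regions) against -0.996 at 278 to 432 tags and -0.78 (19 regions) against -0.86 at 433 to 693. A smaller drop at a given tag level was therefore not seen throughout. The authors chose these regions on the same tags, so the loss itself is not independent evidence.

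The 21 DSS-enriched regions with a site had median nucleosome tags of 88 for water and 166 for DSS. The median log2 ratio was 0.92 (quartiles 0.70 and 1.56), against 1.51 (1.03 and 2.16) in the 792 regions without a water peak. A gain of more than 2-fold was seen in 10 of the 21 (47.6%, 28.3 to 67.6), against 71.5% of the list. Compared with regions without a water peak this was -24.4 points (-43.9 to -4.17), and compared with regions that hold another water peak -5.86 points (-26.4 to 15.4). Tag level moved with this too, since 12 of the 21 were among the regions with 300 to 4462 tags over both libraries. The median log2 ratios there were 0.77 with a site and 0.89 without a water peak. At 166 to 299 tags they were 1.30 (4 regions) and 1.30, and at 91 to 164 tags 2.01 (4 regions) and 1.65. The 1 region at 18 to 90 tags had 1.99, against a median of 2.44. The smaller gain was thus not seen in each tag class. In 1 of them, on chromosome 2 (129073807 to 129074381), nucleosome tags were 219 in water and 194 in DSS, and linker tags 276 and 100. The authors' score, as rebuilt from the tags, subtracts linker signal from nucleosome signal.

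**Figure D5:**
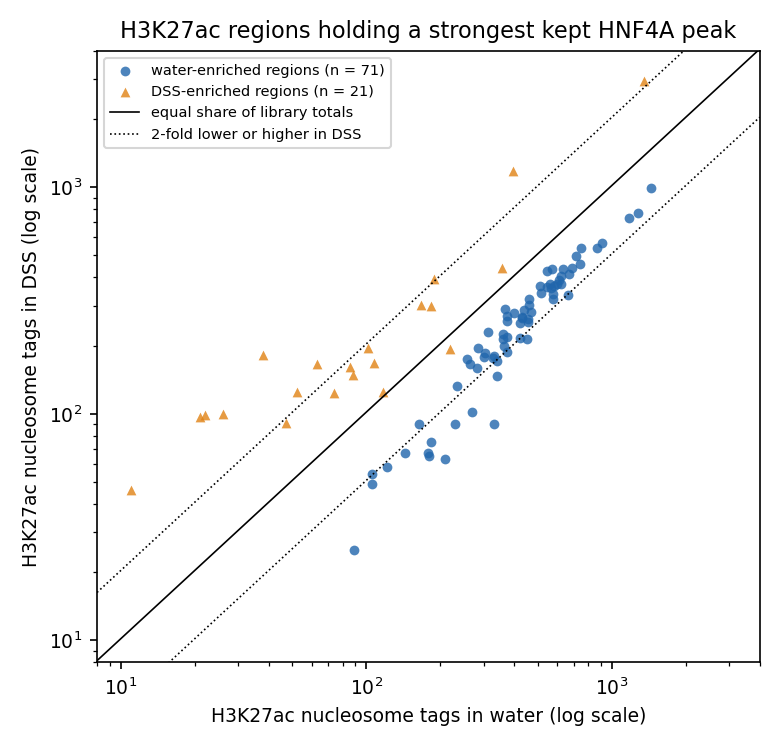
H3K27ac nucleosome tags in water (horizontal) and DSS (vertical), both on log scales, for the listed regions that hold a site: 71 water-enriched (circles) and 21 DSS-enriched (triangles). The solid line marks equal shares of the library totals and the dotted lines 2-fold differences; 16 circles and 10 triangles lie beyond them.

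Among the water-enriched regions with a site, the highest authors' scores belonged to overlapping regions on chromosome 18 (69463052 to 69463526 and 69463327 to 69463891). The first had 1281 nucleosome tags from water and 772 from DSS, 1.69-fold higher in water (interval 1.54 to 1.85), with 1 linker tag in each library. The site there ranked 406 in water and 759 in DSS, and its centres were 29 bp apart. At chromosome 1 (127346707 to 127347281) the water library gave 913 tags and the DSS library 566 (1.64-fold, 1.48 to 1.83). The HNF4A site there ranked 63 in water and 20 in DSS. On chromosome 1 (166411012 to 166411581) the tags were 660 and 333 (2.02-fold, 1.77 to 2.31) and the HNF4A ranks 694 and 1573. The steepest loss of the 5 was on chromosome 10 (3214582 to 3215191), with 89 and 25 tags (3.63-fold, 2.30 to 5.90) and HNF4A ranks of 1479 and 3050. Linker tags there were 1 in water and 16 in DSS. This region lies near the chromosome start, where artefact signal was not tested.

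Among the DSS-enriched regions with a site, the highest score belonged to chromosome 18 (3005332 to 3005961), near the chromosome start, where artefact signal was not tested. There the water library gave 1355 nucleosome tags and the DSS library 2955, 2.14-fold higher in DSS (2.01 to 2.29), and 3 sites, the strongest at ranks 36 and 31. It also held the most tags of its list, 4462 over both libraries. At chromosome 15 (74916727 to 74917261) there were 394 and 1181 tags (2.94-fold, 2.62 to 3.31) beside the site of rank 7 in both lists, whose centre lay 369 bp from the region centre. At chromosome 1 (193617622 to 193618171) there were 38 and 181 tags (4.68-fold, 3.28 to 6.82), and its site ranked 348 in water and 233 in DSS with identical centres, 32 bp from the region centre. On chromosome 1 (99922432 to 99922971) the tags were 189 in water and 394 in DSS (2.05-fold, 1.72 to 2.45), and the HNF4A ranks 1288 and 3999.

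Only 38 water peaks of the top 10% overlapped no DSS peak. They sat low in that class, with a median water rank of 1384 (quartiles 1041 and 1534). The strongest lay on chromosome 2 (98506150 to 98506749, score 59.6, rank 42) and overlapped another of them (98506325 to 98506924, rank 215). Both belong to the chromosome 2 group above, with a DSS centre 0.786 and 0.611 kb away. The peak on chromosome 10 (21861847 to 21862446, rank 118) had a DSS centre 0.633 kb away, just past the overlap limit. Those on chromosome 19 (5040749 to 5041348, rank 418) and chromosome 18 (42670630 to 42671229, rank 747) were 36.0 and 119 kb from the nearest DSS centre. A DSS centre lay within 2 kb of 7 of the 38 (18.4%, 9.22 to 33.4), against 6.99% (6.47 to 7.56) of the weaker water-only peaks. None of the 38 overlapped a water-enriched H3K27ac region, which at 38 peaks allows a share of up to 7.89%, above the 2.51% of all water peaks, so a lower share was not detectable. On a DSS-enriched region lay 1 of the 38, and within 2 kb of one lay 3.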

How the data were processed

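The data are 2 HNF4A peak lists and 2 lists of H3K27ac regions, 1 library per group. CASAVA 1.8.2, MACS2 and the build mm9 are named in the submitters' processing notes. Peak scores are the authors' own, of a kind the deposited lists do not state. H3K27ac tag counts on nucleosomes and linkers are the authors' raw counts per the file headers (MAPQ20), and their region score could be rebuilt from these counts, which gave the library totals. A deposited column of distances in bp to an unnamed reference point was not used in the comparisons.

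The sites and lists were chosen with earlier results of these data known. Peaks were joined at 1 bp of overlap, ties in score were ranked in file order, and starts are 1-based. Tags were scaled by library total, log2 ratios used a pseudocount of 0.5, and tag ratios carry exact conditional (Clopper-Pearson) intervals. Shares carry Wilson, differences Newcombe and medians exact order-statistic 95% intervals. No test was made. The floor for a count of 0 is 3 counts. Functions were tested on simulated data. Sites named: the 10 highest in water and 5 in DSS, the 5 largest rises and falls in rank percentile, 3 on each side of the limit, the 5 strongest lost peaks, and 5 regions per H3K27ac list. The gene table used here is of another build, so no genes or sequences are given. Python 3.11.15, NumPy 2.4.6, pandas 2.3.3 and SciPy 1.17.1 were used.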

Additional observations from a re-analysis of the deposited data

How the results depend on the processing

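The share of top water peaks found again, 97.9%, was 97.6% with an overlap of at least 300 bp, 98.1% with overlapping peaks merged and 98.0% without dense windows. It moved to 95.2% when centres had to lie within 100 bp, to 99.3% in the top 5%, to 93.3% in the top 20%, to 91.9% against DSS peaks above their median and to 45.8% against the top 10% of DSS peaks. The median distance between centres moved from 18 to 15 bp in the top 5% and to 21 bp in the top 20%. With regions within 2 kb counted, 4.86% of the sites lay at water-enriched and 2.52% at DSS-enriched regions. The share with another site within 10 kb moved from 11.7% to 8.99% with overlapping peaks merged and to 9.39% without chromosome starts. Of 56 alternatives run, 45 stayed within the interval of the reported value and 11, given above, did not; the difference in water-enriched share from other water peaks kept an interval above 0 in all 7 of its alternatives. The corresponding DSS-enriched difference, whose interval held 0 throughout, was -0.052 points with overlapping peaks merged and also without chromosome starts. Leaving out chromosome starts and using sites with 1 DSS peak were added after the data were seen. No paired analysis was possible because each group held 1 library, and no library could be left out. The unknown depth of the HNF4A libraries limits every statement on peaks that were not found again.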

Other observations

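Among the sites, the distance between centres moved with the rank of the DSS partner. Sites with a partner in the top 10% of DSS had centres 15 bp apart at the median (exact interval 13 to 16), and the other sites 22 bp (20 to 24). Weaker water peaks with a DSS partner in the top 10% had a median of 30 bp (25 to 34), and those with weaker partners 34 bp (33 to 35), with overlapping intervals. Centres lay within 50 bp in 64.3% (58.9 to 69.3) and 65.0% (63.9 to 66.1) of them. Both classes of weaker water peaks thus had a longer median distance than either class of the sites. Among the sites, the 350 with the lowest DSS ranks (2880 to 10570) still had centres within 50 bp in 77.4%.

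The neighbourhoods of the sites held listed H3K27ac regions of both directions. A water-enriched region was at most 50 kb away from 302 sites (17.3%, interval 15.6 to 19.1), from 15.2% of weaker shared peaks (14.4 to 16.0) and from 13.2% of water-only peaks (12.5 to 13.9). A DSS-enriched region was that near to 14.2% of the sites (12.7 to 16.0), 13.3% of weaker shared peaks (12.6 to 14.1) and 11.8% of water-only peaks (11.1 to 12.5).

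Among the larger groups of water-enriched regions, linked at up to 50 kb, the one on chromosome 4 (55616482 to 55731861) held 2 sites, with water ranks of 1023 and 1066 and DSS ranks of 699 and 1281. The group on chromosome 6 (52198702 to 52248971) held 1, at ranks 1759 and 2154. A group on chromosome 1 (132658007 to 132735986) held 3, at water ranks of 648, 1020 and 1229 and DSS ranks of 235, 1118 and 2004. The group on chromosome 13 (6008917 to 6076671) held 0 sites among 6 water peaks. Of the 4 largest groups of DSS-enriched regions, the one on chromosome 8 (129082297 to 129185246) held 2 sites, with water ranks of 840 and 1277 and DSS ranks of 548 and 3028. Those on chromosome 6 (82697667 to 82727341), chromosome 12 (112666502 to 112676816) and chromosome 19 (11303977 to 11309171) held 0.

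Of the sites, 66 (3.77%, interval 2.98 to 4.77) lay in 100 kb windows crowded with 10 or more water peaks, against 2.19% (1.98 to 2.41) of all water peaks. Of these 66, 31 lay near the chromosome starts, and without the starts the share of sites was 2.07% (1.49 to 2.86). The 2.19% of all water peaks still includes the starts, so these 2 shares are not a matched comparison. The water-enriched region with most tags, 2440 over both libraries, lay on chromosome 12 (85049627 to 85050126) and held a site of ranks 625 and 1077; it was picked after the values had been seen.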
